A study of Mus musculus with 8 samples.

Results

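Ciliary transport and centrosomal genes were taken as all genes whose single symbol in the array annotation begins with Ift, Bbs, Cep, Nphp or Tctn followed by a digit, or with Dync2. The rule found 65 of the 18193 genes measured, of which 14 were Ift genes, 2 Dync2, 8 Bbs, 1 Nphp, 3 Tctn and 37 Cep. Each gene was read at its brightest probe set, by the mean over all arrays, and the choice used no comparison between genotypes. The genes are Ift20, Ift22, Ift27, Ift43, Ift46, Ift52, Ift57, Ift74, Ift80, Ift81, Ift88, Ift122, Ift140 and Ift172, then Dync2h1 and Dync2li1, then Bbs1, Bbs2, Bbs4, Bbs5, Bbs7, Bbs9, Bbs10 and Bbs12, and Nphp4, Tctn1, Tctn2 and Tctn3. The Cep genes are Cep19, Cep20, Cep41, Cep43, Cep44, Cep55, Cep57, Cep57l1, Cep63, Cep68, Cep70, Cep72, Cep76, Cep78, Cep83, Cep83os, Cep85, Cep89, Cep95, Cep97, Cep112, Cep120, Cep126, Cep128, Cep131, Cep135, Cep152, Cep162, Cep164, Cep170, Cep170b, Cep192, Cep250, Cep290, Cep295, Cep295nl and Cep350. Cep83os is a transcript from the strand opposite Cep83, and it was kept because its symbol fits the rule.

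The study measured total RNA of the mouse retina on Affymetrix expression arrays to describe the transcriptome of animals without Nxnl1, the gene of a thioredoxin-like photoreceptor protein known as the rod-derived cone viability factor. There were 3 arrays labelled wild type, 2 labelled heterozygous for a null allele of Nxnl1 and 3 labelled homozygous for it. In all 3 groups the strain label is BALB/c AJ, the age postnatal day 40, no agent was given, and the retina is described as freed of its pigment epithelium. Markers of the pigment epithelium still had means of 8.31 to 9.06 per array. The labels do not say how the allele was made, and the ninth sample that the design text counts was not analysed here. Separate animals are not named for the arrays either, so the p-values below rest on a spread between samples that may be technical. All values are log2 expression values as deposited, where a difference of 1 is a doubling, and arrays are given in the order of their replicate numbers.

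A photoreceptor carries its outer segment on a modified cilium, through which opsin and the other outer segment proteins pass from the cell body. Intraflagellar transport trains move along this cilium. Their IFT-B part travels outward with kinesin-2, and their IFT-A part serves the return journey with the motor dynein-2, of which Dync2h1 is the heavy chain. The BBSome, built from Bbs proteins, takes membrane proteins out of the cilium. The transition zone at its base, where Nphp4, the tectonic proteins (Tctn) and Cep290 sit, acts as a gate, and many Cep proteins build the centriole from which the cilium grows. Loss of several of these genes causes retinal degeneration.

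Many cilium genes carry an X-box, a pair of inverted sites bound by RFX transcription factors. Promoter windows of 300 bases, from 250 before to 50 after the annotated start, were given by RefSeq (GRCm38.p6) for 56 of the 65 genes. An X-box was searched as GTTNCC followed after 0 to 3 bases by GGNAAC, and its core site alone as GTTGCC, both on either strand, so that an X-box can hold a core site. The X-box lay in the windows of 6 genes (10.7%), Bbs7, Cep19, Cep41, Ift57, Tctn1 and Tctn3, against 1.06% of the 14368 measured genes with a window and 0.936% of all 27025 genes of the promoter table. The core site lay in 21 of the 56 (37.5%), these 6 included, against 14.7% of the measured genes. These matches are a description of the letters in the windows. The X-box matches are shown because these windows hold them, like the core site, more often than the windows of other genes do. Each is written 5′ to 3′ on the strand of its gene, with the X-box in capitals.
Bbs7: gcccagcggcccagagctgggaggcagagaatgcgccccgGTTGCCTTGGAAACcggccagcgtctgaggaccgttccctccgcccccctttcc
Cep41: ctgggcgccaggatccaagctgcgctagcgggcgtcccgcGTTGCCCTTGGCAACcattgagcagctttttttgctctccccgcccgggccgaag
Ift57: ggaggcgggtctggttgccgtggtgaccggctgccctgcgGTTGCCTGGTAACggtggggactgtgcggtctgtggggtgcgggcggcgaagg
Tctn3: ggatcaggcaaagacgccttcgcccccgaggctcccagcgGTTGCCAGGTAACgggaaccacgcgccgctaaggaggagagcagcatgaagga
Cep19: agccttctGTTGCCTTGGGAACgatcctcg
Tctn1: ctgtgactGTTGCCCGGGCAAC

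The stretches lie at chr3:36613457-36613550 on the minus strand for Bbs7, chr6:30693826-30693920 on the minus strand for Cep41, chr16:49699194-49699286 on the plus strand for Ift57 and chr19:40612319-40612411 on the minus strand for Tctn3. Those of Cep19 and Tctn1 lie at chr16:32099803-32099832 on the plus strand and chr5:122264411-122264432 on the minus strand. The X-box began 121 bases before the start of Bbs7, 131 before that of Cep41, 60 before that of Ift57 and 140 before that of Tctn3, and 22 and 36 bases after the starts of Cep19 and Tctn1. Among these 6 genes the log2 difference of homozygous minus wild type ran from -0.08 (SE 0.09) for Tctn3 to 0.13 (SE 0.14) for Tctn1. By family, the core site lay in 5 of the 11 Ift genes with a window, 3 of 8 Bbs genes, all 3 Tctn genes and 8 of 32 Cep genes, as well as in Dync2h1 and Nphp4.

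**Figure D1:**
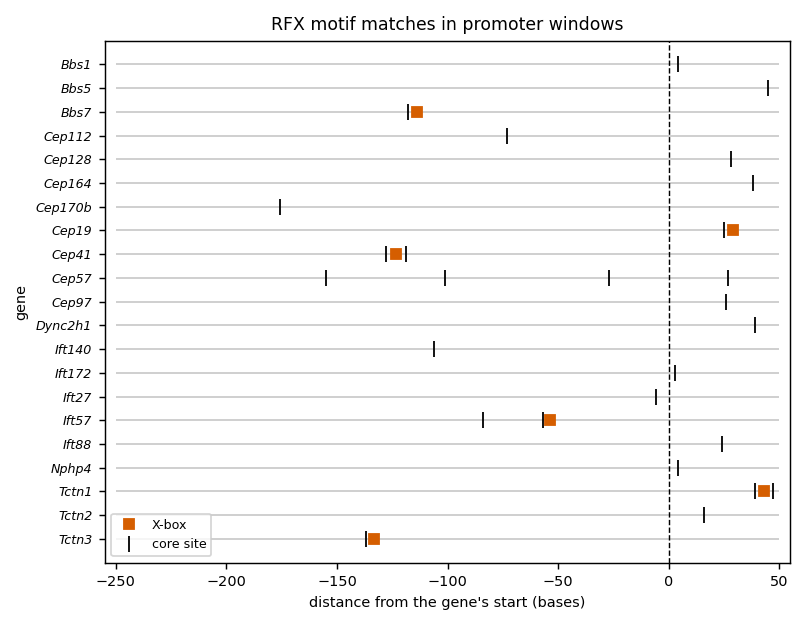
Positions of the RFX core site (black ticks) and of the X-box (orange squares) in the promoter windows of the 21 genes with a match, in bases from the annotated start (dashed line). The X-boxes of Bbs7, Cep41, Ift57 and Tctn3 lie before the start, and those of Cep19 and Tctn1 after it.

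Nxnl1, the targeted gene, read 9.22, 8.87 and 8.65 in wild type, 8.65 and 6.75 under the heterozygous label and 6.13, 8.76 and 6.13 under the homozygous label. Homozygous minus wild type was -1.91 (SE 0.73, exact permutation p 0.2, two-sided, where 0.1 is the smallest that 3 against 3 arrays allow). The array labelled homozygous 2, at 8.76, thus read like wild type. The array labelled heterozygous 2, at 6.75, came close to the 6.13 of homozygous 1 and 3. A reading below wild type is not in itself against a heterozygous label, so at this probe set the case is weaker there. The array labelled heterozygous 1, at 8.65, equalled wild-type array 3 and showed no loss. At the dimmer probe set of Nxnl1, heterozygous 2 read 5.48, level with 5.47 and 5.56 on homozygous 1 and 3. Homozygous 2 (6.62) and heterozygous 1 (6.79) there lay near wild type (6.21, 6.76 and 6.70). On this gene alone, homozygous 2 and heterozygous 2 are treated below as arrays against their label. Each genotype difference below mixes such arrays, and results that rest on them are also given without both. The arrays further differed in a measure of RNA quality, the actin probe set at the 5' end of the transcript minus that at its 3' end. This actin control difference ran from -1.81 to -0.69 and was lowest on wild-type array 1 (-1.81) and homozygous array 1 (-1.74). The Y-linked gene Eif2s3y was low (3.46 and 3.32) for wild-type 1 and 2, and sex is not in the labels. On the arrays of low Nxnl1, heterozygous 2, homozygous 1 and homozygous 3, it read 7.07, 7.38 and 7.77. On the rest it read 8.73 to 9.14. Lens markers had means of 7.18, 8.14 and 6.70 on those arrays of low Nxnl1, 8.37 on wild-type array 1 and 4.69 to 5.60 elsewhere. Comparisons of homozygous arrays 1 and 3 with wild type hold these differences as well. The part of the Y-linked gene or of the lens markers in the results below was not tested. The rod markers, at means of 13.14 to 13.37 per array, and the cone markers, at 10.72 to 10.98, were present on all 8 arrays. Across arrays the genome-wide correlations ran from 0.979 to 0.996.

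The ciliary genes varied between arrays about as much as other genes. The range from the lowest to the highest of the 8 arrays had a median of 0.42 over the 65 genes, against 0.41 over all genes. It was below 0.5 for 45 of the 65 (69.2%, against 66.5% of all genes), and for 13 of the 14 Ift genes. The median deviation of the 65 genes from their own means ran from -0.08 on the array labelled homozygous 2 to 0.06 on homozygous arrays 1 and 3. The 8 Bbs genes spread furthest among the larger families, from -0.10 on the array labelled homozygous 2 to 0.11 on wild-type array 3. Homozygous array 3 was the highest of all arrays for 16 genes (24.6%, against 8.97% of all genes), and the array labelled homozygous 2 the lowest for 18 (27.7%, against 18.0%). Since the retina was measured in bulk, fewer cells of a type and less RNA per cell cannot be told apart in any of these values.

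**Figure D2:**
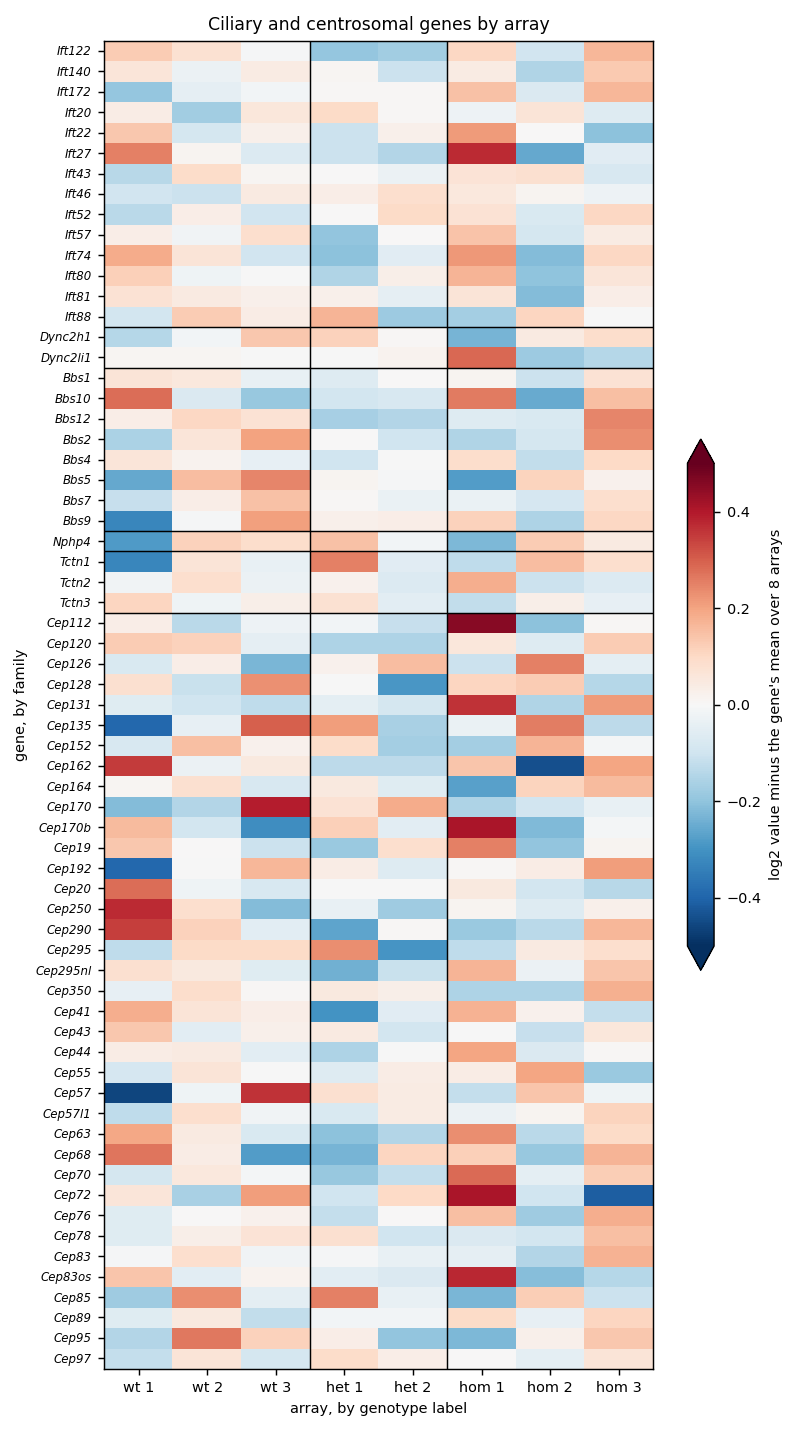
Heat map of the 65 genes (vertical axis, by family) on the 8 arrays (horizontal axis, by genotype label), coloured by the log2 value minus the gene's mean over the arrays, with the colour scale ending at 0.5 on either side. Most cells are pale, 45 genes span less than 0.5 in all, and wild-type array 1 and homozygous array 1 share many of the deeper cells.

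The comparison of homozygous with wild type addresses the absence of Nxnl1. None of the 65 passed the threshold of 0.05 on the adjusted p (limma, Benjamini-Hochberg over 45037 probe sets), where 0% of all probe sets did and the smallest adjusted p was 1.0. At an unadjusted limma p under 0.05 there were 0 of the 65, against 0.913% of all probe sets (411) and 0.841% of the 18193 genes. The median log2 difference of the 65 was -0.01, against 0.02 over all genes, and 29 of them (44.6%) were above 0, against 60.5% of all genes. The differences ran from -0.19 for Cep290 to 0.24 for Cep131. The 95% interval lay within 0.5 on either side of 0 for 59 of the 65 (90.8%, against 83.5% of all genes) and within 1 for all 65. The genes whose interval reached past 0.5 were Cep72, Cep131, Cep135, Cep162, Cep170b and Cep290. For no gene did the arrays of both groups separate, where 3.25% of all genes lay higher on all homozygous arrays than on any wild-type array and 1.58% lay lower. These values use all arrays. Without both arrays against their label, the 95% interval lay within 0.5 for only 46 of the 65 (70.8%, against 65.3% of all genes).

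**Figure D3:**
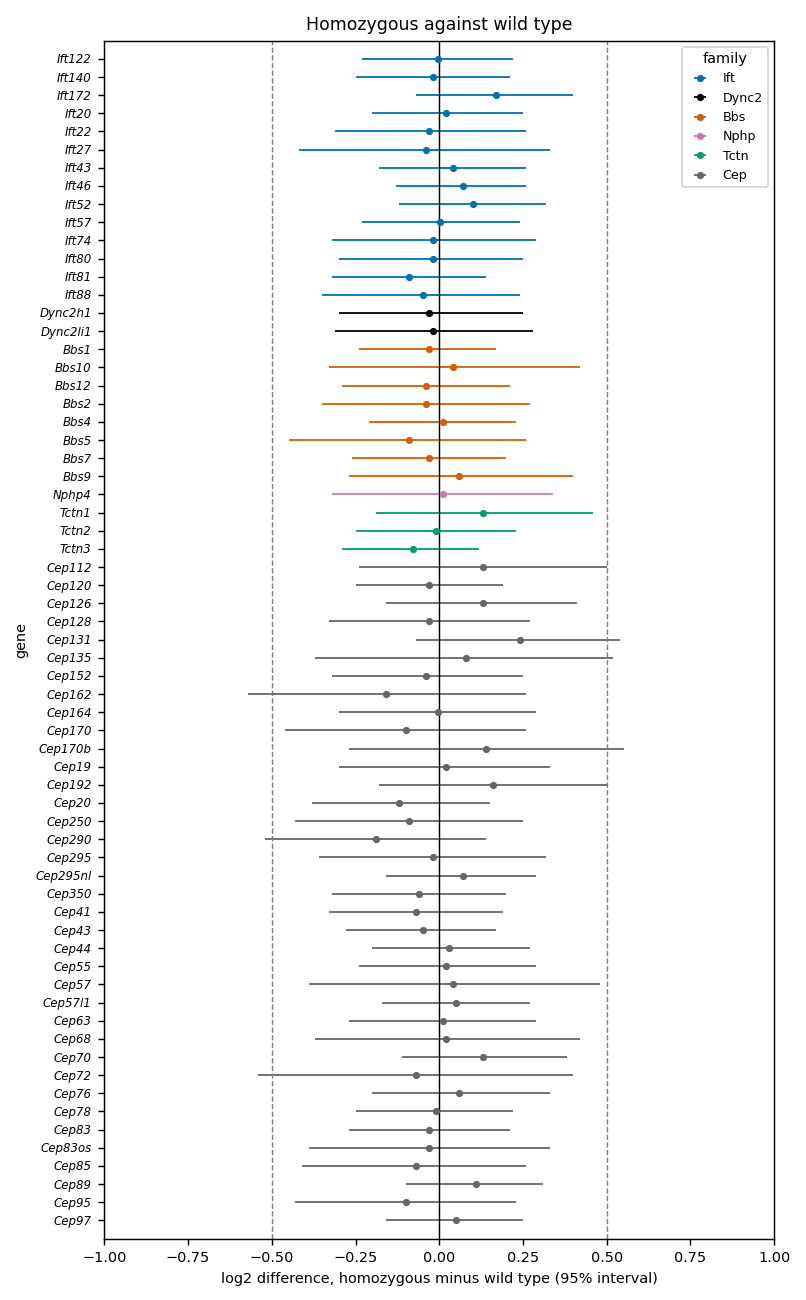
Log2 difference of homozygous minus wild type for each of the 65 genes (points, coloured by family) with its 95% interval from limma (lines), and dashed lines at 0.5 on either side of 0. With all arrays used, all intervals lie within 1, and those of 59 genes lie within 0.5.

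Within the IFT-B part of the trains, Ift88, whose partial loss disrupts the outer segment, read 8.32, 8.54 and 8.45 in wild type, 8.58 and 8.23 under the heterozygous label and 8.24, 8.52 and 8.41 under the homozygous label. The groups overlapped, and the difference of homozygous minus wild type was -0.05 (SE 0.13). Ift172, which sits at the edge of IFT-B, read 8.40, 8.55 and 8.58 on wild-type arrays, 8.60 and 8.60 on heterozygous and 8.74, 8.52 and 8.76 on homozygous arrays. Homozygous arrays 1 and 3 were the highest, and the difference was 0.17 (SE 0.10, unadjusted limma p 0.143). Ift52, an IFT-B core subunit, read 8.25, 8.42 and 8.29, then 8.39 and 8.48, and 8.46, 8.31 and 8.49 in the same order of groups, a difference of 0.10 (SE 0.10). Ift81, which binds tubulin together with Ift74, read 10.21, 10.18 and 10.16 on wild-type arrays, 10.16 and 10.09 on heterozygous and 10.20, 9.92 and 10.17 on homozygous arrays. The array labelled homozygous 2 was its lowest, and the difference was -0.09 (SE 0.10). Ift46, another IFT-B subunit, stayed between 9.41 and 9.60 on the 8 arrays and differed by 0.07 (SE 0.09).

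Ift74 and Ift22, with Ift27, had the widest ranges of their family. Ift74 read 9.04, 8.92 and 8.76 on wild-type arrays, 8.65 and 8.80 on heterozygous and 9.07, 8.64 and 8.96 on homozygous arrays. Ift22, a small GTPase-like subunit, read 8.37, 8.15 and 8.26, then 8.13 and 8.26, and 8.45, 8.24 and 8.03. In both genes each of the 3 groups overlapped the others, and the differences of homozygous minus wild type were -0.02 (SE 0.13) and -0.03 (SE 0.13). In the IFT-A part, Ift140 read 9.39, 9.30 and 9.37 on wild-type arrays, 9.34 and 9.22 on heterozygous and 9.37, 9.18 and 9.46 on homozygous arrays, a difference of -0.02 (SE 0.10). Ift43 and Ift122, also of IFT-A, differed by 0.04 (SE 0.10) and -0.0049 (SE 0.10). The remaining Ift genes, Ift20, Ift27, Ift57 and Ift80, differed by -0.04 to 0.02.

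The motor of the return journey overlapped between groups in both of its genes. Dync2h1 read 8.78, 8.91 and 9.06 on wild-type arrays, 9.04 and 8.93 on heterozygous and 8.69, 8.97 and 9.01 on homozygous arrays. Dync2li1, its light intermediate chain, read 8.83, 8.83 and 8.82, then 8.82 and 8.84, and 9.11, 8.64 and 8.68. At Dync2li1 the wild-type and heterozygous arrays were nearly equal, while the homozygous arrays lay on both sides of them. The differences of homozygous minus wild type were -0.03 (SE 0.12) for Dync2h1 and -0.02 (SE 0.13) for Dync2li1.

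Among the subunits of the BBSome, Bbs1 read 9.64, 9.63 and 9.54 on wild-type arrays, 9.51 and 9.58 on heterozygous and 9.59, 9.47 and 9.65 on homozygous arrays. Bbs2 read 9.81, 10.03 and 10.17, then 9.97 and 9.87, and 9.82, 9.88 and 10.20. Bbs4 read 11.08, 11.04 and 10.98, then 10.92 and 11.02, and 11.11, 10.90 and 11.12. The groups overlapped in all 3 genes, and homozygous minus wild type was -0.03 (SE 0.09) for Bbs1, -0.04 (SE 0.13) for Bbs2 and 0.01 (SE 0.10) for Bbs4. Bbs9 had one of the widest ranges of the family and read 8.93, 9.25 and 9.46 on wild-type arrays, 9.28 and 9.29 on heterozygous and 9.37, 9.10 and 9.36 on homozygous arrays. Wild-type array 1 was its lowest and wild-type array 3 its highest, so its range of 0.53 lay within 1 group. Over the 8 Bbs genes, which include Bbs10 and Bbs12, the chaperonin-like proteins that help to assemble the BBSome, the differences ran from -0.09 to 0.06.

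At the transition zone, Nphp4 read 8.12, 8.52 and 8.49 on wild-type arrays, 8.55 and 8.39 on heterozygous and 8.18, 8.53 and 8.45 on homozygous arrays. Tctn1 read 8.27, 8.66 and 8.56, then 8.85 and 8.54, and 8.47, 8.75 and 8.68. Wild-type array 1 was the lowest array in both genes, and the differences of homozygous minus wild type were 0.01 (SE 0.14) and 0.13 (SE 0.14). Tctn3 read 8.59, 8.46 and 8.51, then 8.56 and 8.43, and 8.36, 8.51 and 8.44, a difference of -0.08 (SE 0.09), and Tctn2 differed by -0.01 (SE 0.11). Cep290, the gate protein whose mutation causes a severe childhood blindness, read 9.70, 9.47 and 9.30 on wild-type arrays, 9.09 and 9.36 on heterozygous and 9.17, 9.22 and 9.52 on homozygous arrays. Homozygous arrays 1 and 2 lay below all wild-type arrays and homozygous array 3 within them. Group means were 9.49 ± 0.20 (SD, n = 3) for wild type against 9.30 ± 0.19 (SD, n = 3) for homozygous arrays, a difference of -0.19 (SE 0.15, 95% interval -0.52 to 0.14). Without wild-type array 1 and homozygous array 1 the difference of Cep290 was -0.02, and without homozygous array 3 it was -0.30. Cep162, which binds the axoneme below the transition zone, read 6.81, 6.43 and 6.51, then 6.33 and 6.33, and 6.60, 6.02 and 6.66. The array labelled homozygous 2 was its lowest, and the difference of -0.16 (SE 0.18) was 0.04 without that array.

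Of the centrosomal genes, Cep131, a protein of the satellites around the centriole, had the largest difference. It read 7.43, 7.39 and 7.36 on wild-type arrays, 7.44 and 7.40 on heterozygous and 7.85, 7.34 and 7.70 on homozygous arrays. Homozygous arrays 1 and 3 were the highest, and the other 6 arrays lay between 7.34 and 7.44. Group means were 7.39 ± 0.03 (SD, n = 3) for wild type against 7.63 ± 0.26 (SD, n = 3) for homozygous arrays, a difference of 0.24 (SE 0.13, 95% interval -0.07 to 0.54, unadjusted limma p 0.110). Without the array labelled homozygous 2 and the array labelled heterozygous 2 it was 0.38 (SE 0.10), with an unadjusted limma p of 0.0109 and an adjusted one of 0.976. The array labelled heterozygous 2, where Nxnl1 was also low, read 7.40 for Cep131. Without homozygous array 1 the difference was 0.13.

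The next smallest unadjusted p-values among Cep genes above wild type were those of Cep70, Cep89 and Cep192. Cep192, which recruits the material around the centrosome, read 6.35, 6.74 and 6.91 on wild-type arrays, 6.78 and 6.68 on heterozygous and 6.75, 6.78 and 6.95 on homozygous arrays. Only wild-type array 1 stood apart, and the difference was 0.16 (SE 0.15). Cep70 read 6.94, 7.08 and 7.02, then 6.84 and 6.91, and 7.31, 6.98 and 7.15, a difference of 0.13 (SE 0.11) that was -0.04 over the mean of its probe sets. Cep89, of the appendages that dock the mother centriole to the membrane, read 8.22, 8.33 and 8.16, then 8.27 and 8.27, and 8.38, 8.24 and 8.39, a difference of 0.11 (SE 0.09) that was -0.0036 over the mean of its probe sets. Below wild type, Cep20 read 10.13, 9.83 and 9.77, then 9.85 and 9.85, and 9.90, 9.76 and 9.71, a difference of -0.12 (SE 0.12). Cep95 read 7.76, 8.17 and 8.02, then 7.94 and 7.71, and 7.68, 7.93 and 8.04, a difference of -0.10 (SE 0.14). In each of these genes the homozygous and wild-type arrays overlapped. Over the 37 Cep genes the median difference was -0.0031, with 18 above 0, and the 95% interval lay within 0.5 for 31.

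Leaving out both arrays against their label, heterozygous 2 and homozygous 2, left 3 wild-type arrays, 1 heterozygous array, which is then assumed to vary like the others, and homozygous arrays 1 and 3. The median difference of homozygous minus wild type was then 0.03 over the 65 genes, against 0.05 over all genes, and 40 of the 65 were above 0. Again none passed the adjusted threshold (smallest limma adjusted p 0.976 among the 65 and 0.26 over all probe sets, of which 0 were called). At an unadjusted p under 0.05 Cep131 was the 1 gene of 65, where 2.41% of all genes were. Both homozygous arrays lay above all wild-type arrays for 8 of the 65 (12.3%, against 12.5% of all genes): Ift52, Ift172, Bbs4, Cep70, Cep76, Cep89, Cep131 and Cep295nl. They lay below for Tctn3 alone (1.54%, against 5.78%).

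Of heterozygous minus wild type, 0 of the 65 genes passed the adjusted threshold (limma, Benjamini-Hochberg), as did 0% of all probe sets, and 1.15% of all probe sets (516) and 1.17% of all genes had an unadjusted p under 0.05. The 1 gene of 65 at that unadjusted level was Ift122 of IFT-A. It read 9.57, 9.52 and 9.44 on wild-type arrays, 9.25 and 9.27 on heterozygous and 9.55, 9.35 and 9.61 on homozygous arrays. Both heterozygous arrays were lower than all 6 others, and the difference was -0.25 (SE 0.11, unadjusted limma p 0.0499). At the second probe set of Ift122 the difference was -0.04, and the heterozygous arrays, at 8.20 and 8.07, lay within the range of the others.

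Both heterozygous arrays read lower than every wild-type array for 10 genes: Ift27, Ift81, Ift122, Bbs12, Cep41, Cep63, Cep70, Cep120, Cep162 and Cep295nl. They make 15.4% of the 65, where 8.03% of all genes lay lower, and 1 of the 65, Ift172, lay higher, where 6.95% of all genes did. For 6 of these 10 both heterozygous arrays were also below all homozygous arrays: Ift122, Bbs12, Cep63, Cep70, Cep120 and Cep295nl (9.23%, against 2.57% of all genes). For 0 of the 65 were both heterozygous arrays above all 6 others, against 1.1% of all genes. The 6 genes do unlike things. Bbs12 is a chaperonin-like protein, Cep63 and Cep120 take part in building new centrioles, and Ift122 belongs to IFT-A. No difference among these 6 passed the adjusted threshold. At the dim second probe sets of Cep63 and Cep70, heterozygous minus wild type was -0.15 and 0.06.

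Bbs12 read 8.73, 8.80 and 8.77 on wild-type arrays, 8.53 and 8.55 on heterozygous and 8.63, 8.62 and 8.94 on homozygous arrays, and heterozygous minus wild type was -0.23 (SE 0.12). Cep120 read 9.82, 9.81 and 9.65, then 9.54 and 9.54, and 9.75, 9.63 and 9.82, with a difference of -0.22 (SE 0.11). Cep63 read 8.44, 8.29 and 8.17, then 8.04 and 8.10, and 8.48, 8.11 and 8.34, with a difference of -0.23 (SE 0.14). In Cep63 and Cep120 the array labelled homozygous 2, at 8.11 and 9.63, was the nearest to the heterozygous arrays. Cep295nl read 5.11, 5.08 and 4.97, then 4.79 and 4.92, and 5.20, 5.0 and 5.17, with a difference of -0.20 (SE 0.11). Cep41, needed for the glutamylation of ciliary tubulin, read 8.42, 8.30 and 8.27 on wild-type arrays, 7.94 and 8.18 on heterozygous and 8.41, 8.26 and 8.12 on homozygous arrays, and its difference was -0.27 (SE 0.13, 95% interval -0.56 to 0.02). Homozygous array 3 was below heterozygous array 2 there, so Cep41 is not one of the 6.

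Above wild type, the smallest unadjusted p-values belonged to Cep126, Tctn1 and Ift46. Cep126 read 7.51, 7.62 and 7.36 on wild-type arrays, 7.61 and 7.74 on heterozygous and 7.48, 7.84 and 7.54 on homozygous arrays, a difference of 0.18 (SE 0.14) for heterozygous minus wild type. At the second probe set of Cep126 that difference was -0.04. Tctn1 differed by 0.20 (SE 0.16) and Ift46 by 0.11 (SE 0.10). In each the heterozygous arrays overlapped wild type. The median over the 65 was -0.04 (all genes -0.01), 21 of 65 were above 0 (32.3%, against 47.6%), and the 95% interval lay within 0.5 for 46 of 65.

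**Figure D4:**
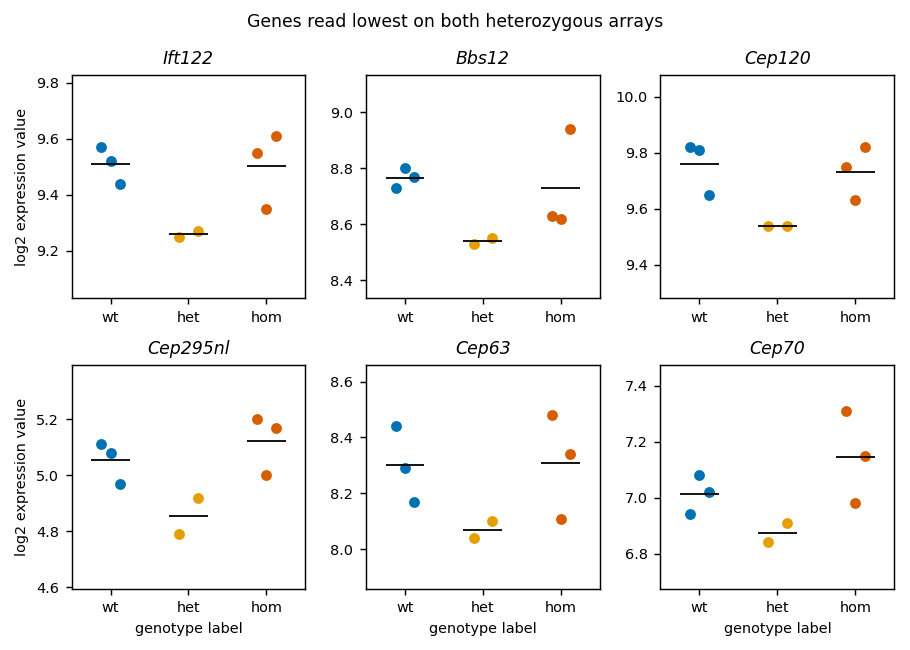
Log2 values (vertical axis) of the 6 genes that read lower on both heterozygous arrays than on the 6 others, by genotype label (horizontal axis: wt, wild type, het, heterozygous, hom, homozygous), with points for arrays and bars for group means. The gap between the heterozygous points and the nearest other array is small beside the spread of the homozygous points, and all vertical axes have the same length in log2 units.

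The mean of 8 pigment epithelium markers was also lowest on the heterozygous arrays, and the 6 genes were picked for such an order. Of the single markers only Dct read lower on both heterozygous arrays than on all others. Rpe65, Rgr and Ttr were lowest on homozygous array 3. The array nearest to the heterozygous ones was homozygous array 3 for the marker mean (8.37), and another array for each of the 6 genes. This order of arrays was not a test of the pigment epithelium's part. The mean of the 8 markers was 8.31 and 8.33 on the heterozygous arrays, 8.48 to 9.06 in wild type and 8.37 to 8.87 in the homozygous group. In 7 of the 8 heterozygous minus wild type was below 0, with a median of -0.61, and 4 had an unadjusted limma p under 0.05. None of these markers was near the lower end of the scale, and Ttr read 11.99 to 13.11. The part of the pigment epithelium in the lower ciliary readings was not tested. With both arrays against their label left out, the lone heterozygous array was below all 5 others for 19 of the 65 genes (29.2%, against 16.9% of all genes). The 6 genes named above are among them by the way they were picked, so their return adds nothing. The lone heterozygous array was below all wild-type arrays for 21 (32.3%, against 22.5%) and above them for 10 (15.4%, against 21.2%). The 21 include, for the same reason, all genes that both heterozygous arrays had read lower than wild type.

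Homozygous minus heterozygous gave 0 of 65 past the adjusted threshold (limma, Benjamini-Hochberg), with 0% of all probe sets. At an unadjusted p under 0.05 there was Cep295nl, at 0.26 (SE 0.11, unadjusted limma p 0.0411), where 0.899% of all probe sets (405) and 0.808% of all genes were. Cep70 followed at 0.27 (SE 0.12) and Ift122 at 0.25 (SE 0.11). All homozygous arrays lay above both heterozygous arrays for the 6 genes already named (7.58% of all genes) and below them for Cep170 (3.42% of all genes). Cep170, of the subdistal appendages of the mother centriole, read 7.54, 7.61 and 8.15 on wild-type arrays, 7.83 and 7.94 on heterozygous and 7.60, 7.66 and 7.72 on homozygous arrays, a difference of -0.22 (SE 0.18). At its second probe set the difference was 0.18, and the groups overlapped. Cep85 read 8.18, 8.59 and 8.31, then 8.61 and 8.32, and 8.13, 8.48 and 8.25, a difference of -0.18 (SE 0.16). Dync2h1 differed by -0.10 (SE 0.14), or by 0.01 without homozygous array 1. The heterozygous arrays enter this contrast and the previous one, so the same low readings give both their sizes. The median over the 65 was 0.04 (all genes 0.03), and the 95% interval lay within 0.5 for 49.

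Along the actin control difference, 4 of the 65 genes passed the test: Bbs5 rose, and Bbs10, Ift27 and Cep170b fell, as this difference rose. A slope on this difference was fitted beside the genotype terms, in log2 units of a gene per log2 unit of the control, and a positive slope means a lower reading on arrays of low control value. It passed the adjusted threshold for 10.3% of all probe sets (limma, Benjamini-Hochberg), and 27.8% of probe sets and 26.5% of genes had an unadjusted p under 0.05. Among the 65 genes 1 was called upward (1.18% of all genes were) and 3 downward (7.42% of all genes were), and 15 (23.1%) had an unadjusted p under 0.05. After shifting the arrays to equal medians, 0 of the 65 were called upward and 5 downward (7.69%, against 14.7% of all genes in either direction). Over all probe sets the calls changed from 2272 upward and 2381 downward to 1963 and 4348.

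Bbs5, a BBSome subunit that binds phosphoinositides, read 10.60, 11.01 and 11.10 on wild-type arrays, 10.87 and 10.85 on heterozygous and 10.58, 10.97 and 10.88 on homozygous arrays. Wild-type array 1 and homozygous array 1 were its lowest, and the slope was 0.42 (SE 0.11, adjusted limma p 0.0383). Bbs10 read 7.35, 7.0 and 6.88, then 6.98 and 6.99, and 7.33, 6.82 and 7.22. There the same arrays were the highest, and the slope was -0.47 (SE 0.10, adjusted limma p 0.0266). Ift27, a small GTPase-like IFT-B subunit that links the trains to the BBSome, read 8.77, 8.53 and 8.45, then 8.41 and 8.37, and 8.89, 8.26 and 8.46, with a slope of -0.45 (SE 0.11, adjusted limma p 0.0386). Cep170b read 9.33, 9.08 and 8.86, then 9.29 and 9.12, and 9.58, 8.95 and 9.16, with a slope of -0.51 (SE 0.11, adjusted limma p 0.0233). These 4 genes have no genotype difference above 0.19 in size. Without wild-type array 1 and homozygous array 1 the slopes were 0.16 for Bbs5, -0.61 for Bbs10, -0.33 for Ift27 and -0.48 for Cep170b, none of them called, with 0 called over all probe sets. Leaving out wild-type array 2 left 2 of the 65 called, where 5.39% of all genes were, and leaving out wild-type array 3 left 0, where 4.49% were. Leaving out wild-type array 1, homozygous array 1 or homozygous array 2 also left 0, and the share of all genes called was then 0.0055%, 1.28% and 0.374%, against 8.6% with all arrays.

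The start regions of Bbs5, Ift27 and Cep170b hold the core site alone, printed here in capitals as the part they share, 5′ to 3′ on the strand of each gene, and the window of Bbs10 holds none.
Bbs5: gccggcgcGTTGCCtt
Ift27: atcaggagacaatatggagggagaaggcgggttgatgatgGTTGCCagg
Cep170b: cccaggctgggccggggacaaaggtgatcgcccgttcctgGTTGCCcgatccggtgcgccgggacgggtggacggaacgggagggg

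They lie at chr2:69647205-69647220 on the plus strand (Bbs5), chr15:78174082-78174130 on the minus strand (Ift27) and chr12:112721955-112722040 on the plus strand (Cep170b), where the core site began 42 bases after, 9 before and 179 before the start. Nothing about the slopes is drawn from these letters, since 37.5% of the ciliary genes with a window and 14.7% of all measured genes with one hold them too.

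Both arrays of low control value, wild-type array 1 and homozygous array 1, lay above the 6 others for 13 of the 65 genes (against 23.7% of all genes): Ift22, Ift27, Ift74, Ift80, Ift81, Bbs10, Cep19, Cep20, Cep41, Cep63, Cep83os, Cep112 and Cep170b. They lay below the 6 others for 8 (12.3%, against 5.97%): Dync2h1, Bbs2, Bbs5, Nphp4, Tctn1, Cep57, Cep85 and Cep170. The genes of widest range in the Cep family include one of these. Cep57, a centrosomal protein, read 8.23, 8.67 and 9.05 on wild-type arrays, 8.77 and 8.73 on heterozygous and 8.57, 8.83 and 8.67 on homozygous arrays, with a slope of 0.49 (SE 0.14, adjusted limma p 0.0536). Cep72, a satellite protein, had an equal range of 0.82 and read 4.34, 4.12 and 4.49, then 4.18 and 4.38, and 4.69, 4.18 and 3.87, with a slope of -0.18 (SE 0.22).

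**Figure D5:**
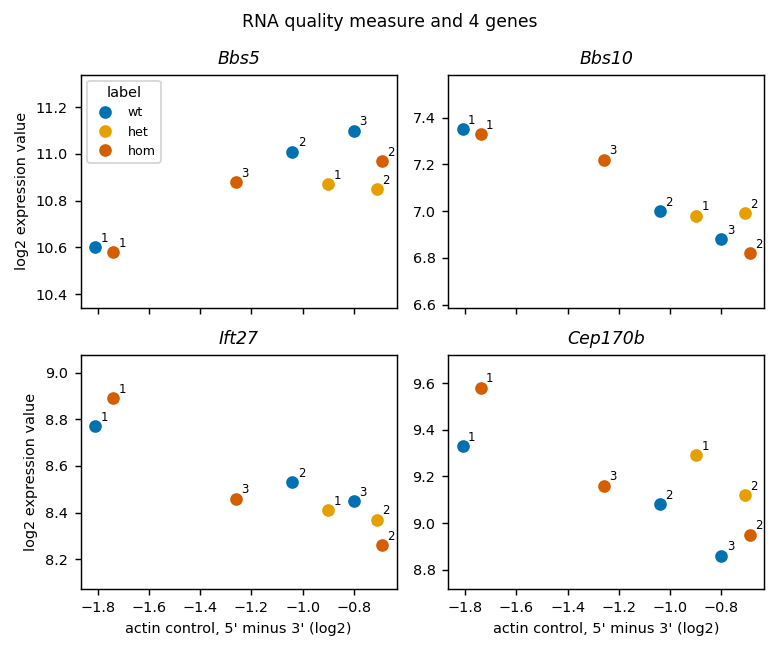
Log2 values of Bbs5, Bbs10, Ift27 and Cep170b (vertical axes of equal length) against the actin control 5' minus 3' difference (horizontal axis, log2), with points for arrays coloured by label and numbered by replicate. Wild-type array 1 and homozygous array 1, at -1.81 and -1.74, lie lowest for Bbs5 and highest in the other panels.

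The 65 genes had 123 probe sets in all, and 34 genes had more than 1. Probe sets of a gene often moved in unlike ways along the control difference. All slopes had the same sign in 9 of the 34 genes. Of the 17 genes with 2 probe sets, 12 had slopes of opposite sign (70.6%, against 49.0% of the 4695 genes with 2). Over the 123 probe sets 10 were called upward (8.13%, against 5.04% of all probe sets) and 4 downward (3.25%, against 5.29%), and of those upward only that of Bbs5 is the brightest of its gene. Ift81 had slopes of -0.16 at its brightest, 0.11 at its second and 1.13 (SE 0.18) at its dimmest probe set. That dimmest probe set read 4.51, 4.90 and 5.70 on wild-type arrays, 5.17 and 5.13 on heterozygous and 3.99, 5.37 and 4.71 on homozygous arrays, lowest on both arrays of low control value. Cep350, a centrosomal protein that anchors microtubules, had a slope of 0.03 (SE 0.13) at its brightest probe set and 2.17 (SE 0.35) at another, which read 4.19, 5.71 and 7.39, then 5.63 and 6.22, and 4.48, 5.97 and 4.83.

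Further genes had unlike slopes at their probe sets. Bbs4 had a slope of 0.71 (SE 0.11) at its second probe set and -0.13 at its brightest, and Ift80 had 0.69 (SE 0.18) and -0.22. Cep95 had 1.10 (SE 0.15) at its second probe set, and Cep68, a linker between centrosomes, had slopes of 0.26 to 0.65 at 4 probe sets and -0.36 at its brightest. Tctn3 was called upward at both of its dimmer probe sets, with 0.63 (SE 0.13) and 0.44 (SE 0.10), and had 0.01 at the brightest. Cep44 went the other way, with -1.17 (SE 0.27) at its second probe set. Cep76 had 0.51 (SE 0.13) at its second probe set against -0.11 at the brightest. In Cep41, Cep63, Cep83os, Cep89, Cep112, Cep162 and Cep170 the slopes also differed in sign, with 1 probe set at an unadjusted p under 0.05. For homozygous minus wild type the 1 gene with such a split was Cep97, which helps to cap the centriole. It differed by 0.42 (unadjusted limma p 0.0137) at 1 of its 4 probe sets and by 0.05, -0.14 and -0.0045 at the others. Which transcript parts these probe sets read was not tested.

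The genes of the same pathways under other symbols were measured for comparison, 111 in 8 lists, and 0 of them passed the adjusted threshold in any genotype contrast (limma, Benjamini-Hochberg). Among 17 other IFT and dynein-2 subunits 9 were above 0 for homozygous minus wild type, with a median of 0.02. Ttc26, an IFT-B subunit, differed by -0.18 (SE 0.09) and Dynll2, a dynein light chain, by 0.09 (SE 0.08). The 5 kinesin-2 genes had a median of 0.02, with 0.08 (SE 0.10) for Kif17 and 0.07 (SE 0.10) for Kif3a. The 9 BBSome partners had a median of -0.01, with -0.11 (SE 0.10) for Lztfl1 and -0.08 (SE 0.10) for Mkks. Of 18 transition zone genes 5 were above 0, with a median of -0.02, 0.16 (SE 0.10) for Spata7 and 0.12 (SE 0.10) for Invs. Of 13 genes for lipidated cargo and ciliary small GTPases 9 were above 0, with a median of 0.07, 0.20 (SE 0.14) for Arl2 and 0.15 (SE 0.11) for Tulp1.

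Of 24 centriole genes 14 were above 0 (60.5% of all genes were), with a median of 0.03, 0.25 (SE 0.11) for Stil and 0.19 (SE 0.11) for Poc1a. Both read low, Stil at 3.16 to 3.63 and Poc1a at 4.43 to 4.81, where the array medians were 6.11 to 6.21. Of 15 axoneme and ciliopathy genes 6 were above 0, with a median of -0.01. One of these, the tubulin Tubb4b, read 10.46, 10.58 and 10.47 on wild-type arrays, 10.66 and 10.77 on heterozygous and 10.92, 10.71 and 10.63 on homozygous arrays. All homozygous arrays were above all wild-type arrays. Its difference of 0.25 (SE 0.10) had an unadjusted limma p of 0.0426 and an adjusted one of 1.0. Fam161a, of the same list, differed by -0.17 (SE 0.17). Of 10 regulators of cilium genes 4 were above 0, with 0.24 (SE 0.15) for Rfx2 and -0.16 (SE 0.11) for Rfx5. Along the actin control difference 1 of the 111 genes was called upward and 4 downward, where 1.18% of all genes were called upward and 7.42% downward. The 111 genes were thus called no more often than other genes. The gene called upward was the dynein-2 subunit Wdr60 with 0.59 (SE 0.12). Those called downward were Ttc30a1 with -0.62 (SE 0.11), Wdr34 with -0.53 (SE 0.13), Trim32 with -0.76 (SE 0.12) and Ofd1 with -0.52 (SE 0.12). Wdr34 and Wdr60 both encode intermediate chains of dynein-2 and had slopes of opposite sign. Markers of cells with motile cilia had means of 5.10 to 5.27 on the 8 arrays and those of dividing cells 4.39 to 4.49.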

How the data were processed

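Total RNA of 8 retina samples (3 wild type, 2 heterozygous, 3 homozygous) was measured on 1 array each. The authors deposited log2 expression values per probe set, made with RMA per the submitters' processing notes, of which no version is given in the sources used here. RMA sets all arrays to one distribution before probe sets are summarised, so a shift common to all genes cannot be seen, and the number of arrays limits the precision. The medians of the deposited values still differed, and were lowest on homozygous array 1 (6.11) and wild-type array 1 (6.13), against up to 6.21 elsewhere. Of 45101 probe sets, 64 controls were left out and 45037 tested. Of these, 34945 have 1 gene symbol in the platform annotation, 932 several and 9160 none. Genes were read at the probe set of highest mean over the arrays, which gave 18193 genes.

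limma 3.58.1 in R 4.3.3 fitted the 3 groups to all probe sets with 5 residual degrees of freedom, and eBayes tests were two-sided. Adjusted p-values are Benjamini-Hochberg values over all 45037, called below 0.05, and intervals are 95%. A second fit added the actin control difference to the genotype terms. These fits were tested on simulated data.

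The genes named were every gene of the set, with values by array for a short list of well-known ones, those of smallest p in each contrast and direction, the widest ranges per family, those called on the slope and those with probe sets of opposite sign. The genes, lists and tests were chosen with earlier results of these data known. Promoter windows came from RefSeq (GRCm38.p6); the array values carry no genome build, so no other coordinates are given. Alternatives changed the normalization, the filter on dim probe sets, the variance model, array weights, the replicate block, the probe set rule and the arrays used.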

Additional observations from a re-analysis of the deposited data

How the results depend on the processing

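In each genotype contrast 0 of the 65 genes were called under every alternative run. Deviations of same-numbered arrays correlated from -0.248 to 0.616. The value of 0.616 was that of wild-type 1 and homozygous 1, the arrays of lowest actin difference. The heterozygous arrays mirror each other in this measure, so it cannot settle whether replicate numbers mark a batch. With the replicate block 0 of the 65 and 0% of all genes were called on the actin slope, against 4 (6.15%, all genes 8.6%) without it. That count was also 0 without moderation, without both arrays that go against their label and without both arrays of lowest actin difference, where 0.0055%, 0.044% and 0% of all genes were called. It was 15 with array weights (23.1%, all genes 23.9%), 7 with each gene's probe sets averaged (10.8%, all genes 11%) and 9 without genotype terms (13.8%, all genes 13.1%), each near the share of all genes, and 0 to 4 when 1 array was left out. The cause was not tested. Homozygous minus wild type turned sign over the mean of probe sets for Cep70 (-0.04), Cep89 (-0.0036), Dynll2 (-0.03), Mkks (0.03) and Invs (-0.07), and with array weights for Cep162 (0.11), Kif17 (-0.07) and Arl2 (-0.03). Without both arrays against their label Cep162 was at 0.04. With 1 array left out it ran from -0.27 to 0.04 for Cep162, -0.21 to 0.01 for Cep95 and -0.0044 to 0.13 for Kif3a. Homozygous minus heterozygous of Dync2h1 was 0.01 with the actin difference as a covariate or without both arrays of lowest actin difference, and -0.16 to 0.01 with 1 array left out. Leaving out both arrays against their label was applied to the counts of separated groups after seeing the data. Homozygous arrays were then above wild type for 8 genes (12.3%, all genes 12.5%) and below for 1 (1.54%, all genes 5.78%), the heterozygous array above wild type for 10 (15.4%, all genes 21.2%) and below for 21 (32.3%, all genes 22.5%), homozygous above heterozygous for 30 (46.2%, all genes 41.6%) and below for 14 (21.5%, all genes 24.0%), and the heterozygous array below all others for 19 (29.2%, all genes 16.9%). The 95% interval lay within 0.5 for 25 genes (38.5%, all genes 42.9%) in the contrast of heterozygous with wild type and for 19 (29.2%, all genes 32.1%) in that of homozygous with heterozygous.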
